A study of Mus musculus with 4 samples.

Results

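The colony-stimulating factors and their receptors were followed as 8 genes of the 23284 gene rows that each library lists. They were taken by symbol: the ligand genes Csf1, Csf2 and Csf3, and the receptor genes Csf1r, Csf2ra, Csf2rb, Csf2rb2 and Csf3r. The set was chosen by name, with the FPKM levels and the LPS and genotype ratios of these genes in the same libraries in view, so every ratio below is a description and none carries a test. The cells were mouse bone marrow-derived macrophages, that is, macrophages grown in culture from marrow progenitors. Every culture, control ones included, was first given hemin, an oxidised form of heme, for 18 h. The dose was 40 µM by the protocol and the design, and the per-sample descriptions print mM as its unit. The 4 groups, each of 1 library, were control (Spic+/+) and Spic-/- cells, either left unstimulated for the last 4 h or stimulated over that time with LPS at 100 ng/ml. LPS is the bacterial lipopolysaccharide that macrophages sense through a Toll-like receptor. The sample titles abbreviate the knockout as cKO, and they mark the unstimulated libraries as 0h and the stimulated ones as 4h. The labels used here state neither the allele nor a Cre driver, nor the age of the mice or how many gave marrow.

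Colony-stimulating factors are secreted proteins named for the blood cell colonies they support in culture. Csf1 encodes M-CSF, the survival factor of macrophages, which acts through the receptor tyrosine kinase encoded by Csf1r. Csf2 encodes GM-CSF, whose receptor pairs a specific alpha chain (Csf2ra) with a shared beta chain (Csf2rb) and signals through JAK2 and STAT5. Csf3 encodes G-CSF, the main driver of neutrophil production, which acts through Csf3r and chiefly STAT3. Mice carry a further beta chain, Csf2rb2, that serves the receptor for interleukin 3. Tissue macrophages live on M-CSF, while inflamed macrophages and stromal cells make GM-CSF and G-CSF.

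The deposited unit was FPKM, which scales fragments by transcript length and library size, so levels of different genes can be set side by side per length. Differences are given as log2 ratios of (FPKM + 1), a scale that makes those of low genes look smaller, and a gene was counted in a comparison at 5 FPKM or more in at least 1 of its libraries and called at 2-fold or more. By the steps between low values, 1 FPKM was worth 8.18 to 15.9 fragments per kilobase. It was worth least in stimulated knockout, at 51.6% of its worth in unstimulated control. That share reflects the scaling of the values as well as the fragments sequenced, so it is not a share of sequencing depth. The FPKM values summed to 500123 in unstimulated control and 819232 in stimulated knockout. Spic encodes Spi-C, a transcription factor of the Ets family that macrophages make when loaded with heme, and the design compares macrophages with and without it under LPS. The targeted gene, Spic, stood at 53.1 FPKM in unstimulated control, 406 in stimulated control, 14.98 in unstimulated knockout and 80.8 in stimulated knockout, so the knockout libraries still held 28.2% and 19.9% of the control level. Of macrophage markers, the libraries held high levels of Emr1, which encodes F4/80 (439 to 790 FPKM), and of the lysosomal marker gene Cd68 (565 to 789 FPKM). In bulk RNA such as this, fewer cells of a type and less RNA per cell cannot be told apart. Counting intervals are exact 95% intervals from estimated fragments and leave out all variation between cultures.

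Stretches from the 3′ untranslated regions of the 2 ligand genes with the largest LPS ratios are shown first, because the AU-rich element, repeats of the pentamer ATTTA, is the known decay signal of cytokine messages. Capitals mark the pentamers, and the sites are given in the sense direction (GRCm38, GENCODE vM21). The Csf2 site lies at chr11:54247329-54247358 on the minus strand and starts 230 bases after the stop codon, and the Csf3 site lies at chr11:98702984-98703013 on the plus strand, 24 bases after the stop codon.
Csf2: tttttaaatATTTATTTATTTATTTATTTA
Csf3: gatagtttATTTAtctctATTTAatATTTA
In Csf2 the 5 pentamers overlap into a single run, whereas the 3 of the Csf3 site stand apart. The whole Csf2 3′ untranslated region of 317 bases held 9 pentamers and 5 copies of the nonamer ATTTATTTA, overlapping ones counted. That of Csf3, 669 bases long, held 6 pentamers and no nonamer. Csf1 had 4 pentamers in 2111 bases and Csf1r 3 in 1669 bases, and no pentamer was found in those of Csf2ra, Csf2rb, Csf2rb2 or Csf3r. At least 1 nonamer occurs in 6.14% of the 3′ untranslated regions of 20515 genes, and in 1.53% of the 1897 that are at most 20% shorter or 25% longer than that of Csf2. Among regions of like length, as many pentamers as in Csf3 were found in 1.81%, as many as in Csf1 in 49.97% and as many as in Csf1r in 51.7%. These matches describe letters in the transcripts, and message decay was not measured.

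Windows of 250 bases before the RefSeq start (GRCm38.p6) matched 5 of the 8 genes, and Csf3, Csf1r and Csf2rb were not in the table. A pair of them is shown: Csf1, a ligand gene that was higher with LPS and lower in knockout, and Csf2rb2, a receptor gene that was higher in knockout. Each was read on the gene's minus strand, Csf1 from chr3:107760470-107760719 and Csf2rb2 from chr15:78305722-78305971. Capitals mark the NF-kB consensus in Csf1 and GAGGAA in Csf2rb2, both of which match on the strand opposite to the one printed. GAGGAA is the core that Spi-C and its relative PU.1 are known to bind.
Csf1: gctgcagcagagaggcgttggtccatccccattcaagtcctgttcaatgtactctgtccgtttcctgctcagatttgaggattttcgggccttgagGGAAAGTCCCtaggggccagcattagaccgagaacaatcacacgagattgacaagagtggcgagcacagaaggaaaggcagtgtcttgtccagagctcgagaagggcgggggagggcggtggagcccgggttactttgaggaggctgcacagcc
Csf2rb2: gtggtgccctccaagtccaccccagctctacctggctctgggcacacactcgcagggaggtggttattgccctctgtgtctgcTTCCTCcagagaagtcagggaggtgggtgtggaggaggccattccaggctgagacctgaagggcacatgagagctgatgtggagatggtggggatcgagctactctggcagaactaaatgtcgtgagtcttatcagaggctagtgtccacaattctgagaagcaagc
The NF-kB match starts 154 bases before the Csf1 start, and the GAGGAA match 167 bases before the Csf2rb2 start. Searched on both strands, GAGGAA was in the windows of Csf2rb2, Csf2ra and Csf3r and in neither of the windows of Csf1 and Csf2. Of all 32851 windows, 23.3% held GAGGAA. For Csf2rb2, knockout to control log2 ratios without and with LPS were 0.46 and 0.48. They were 0.12 and 0.21 for Csf2ra, and 0.21 and 0.06 for Csf3r. Csf1 and Csf2, without a GAGGAA match, had −0.43 and 2.03 with LPS. Of these 5 genes only Csf2 reached 2-fold between genotypes. A link of the matches to the ratios was not tested. The NF-kB consensus was in the windows of Csf1 and Csf3r, and in 7.25% of all windows, and in Csf3r it did not overlap the GAGGAA match. The Csf2 window ends 232 bases upstream of the GENCODE start of Csf2, and those of Csf3r and Csf2ra include bases of a GENCODE exon. In Csf2ra these are the bases nearest the start, where its GAGGAA matches lie, 14 and 8 bases before it. A match is a string of letters only, and binding was not measured in these samples.

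**Figure D1:**
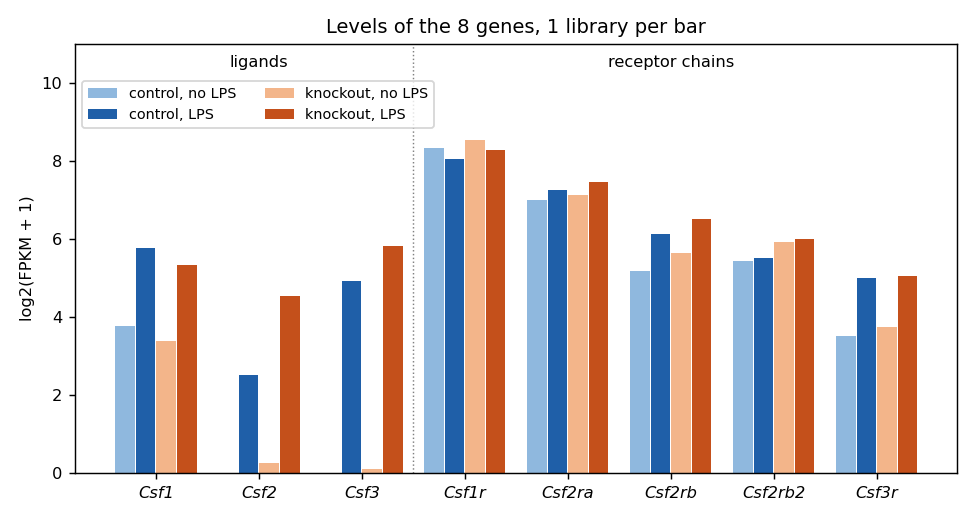
Levels of the 8 genes as log2(FPKM + 1) on the vertical axis, with 1 bar for each of the 4 libraries and ligand genes left of the dotted line. Csf1r has the highest bars in every library (265 to 371 FPKM), and Csf2 and Csf3 have bars at or near 0 without LPS.

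Without LPS, receptor messages were present and 2 of the 3 ligand messages were at or near 0. In control cells without LPS the order per length was Csf1r, Csf2ra, Csf2rb2, Csf2rb, Csf1 and Csf3r, with Csf2 and Csf3 both listed at 0. Unstimulated knockout cells had the same first 4 genes, and Csf3r (12.3 FPKM) stood above Csf1 (9.37 FPKM). In each library Csf1r was first and Csf2ra the next. With 1 library a group, neighbours in these orders have no replicate spread to be set against.

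With LPS, control cells showed higher levels of Csf1, Csf3 and Csf3r, 3 of the 7 genes counted, and none was lower by 2-fold. Among all 8050 genes counted, 12.3% were higher and 6.5% lower. In knockout cells Csf1, Csf2, Csf3 and Csf3r were higher, 4 of 8, against 13.7% higher and 7.74% lower of all 8098 genes. Csf2 was not counted in control because its 4.69 FPKM with LPS was just under the minimum. Csf2rb, at a log2 ratio of 0.96 in control, was just under 2-fold. Csf2 and Csf3 entered these counts only through their LPS libraries, so their place among the calls was given by the filter. The median log2 ratio was 0.96 over the 7 genes counted in control, where all genes counted had 0.11, and 1.10 over the 8 counted in knockout, where all had 0.12. Over all 8 genes, with Csf2 included, the control median was 1.22.

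Csf1 stood at 12.7 FPKM in unstimulated control, 53.3 in stimulated control, 9.37 in unstimulated knockout and 39.3 in stimulated knockout. Both LPS libraries were above both libraries without LPS, and within each LPS state the knockout library was the lower one. The LPS fold was 4.19 in control (counting interval 3.86 to 4.55) and 4.19 in knockout (3.77 to 4.66). Knockout levels were 73.6% of control without LPS and 73.6% with LPS. The counting intervals of these ratios ran from 0.656 to 0.825 and from 0.687 to 0.789. On the log2 scale these were −0.40 and −0.43, while 95% of all genes counted lay between −0.37 and 0.49 without LPS and between −0.49 and 0.60 with LPS. Csf1 was the only one of the 8 genes below 0 in both genotype comparisons, and it stayed below 0 under both other scalings tried.

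Fibroblasts and smooth muscle-like cells are also known to make M-CSF, and their markers were lower in the knockout libraries too. The 12 stromal and endothelial markers summed to 674 FPKM in unstimulated control, 719 in stimulated control, 356 in unstimulated knockout and 405 in stimulated knockout. Of the 9 markers at 1 FPKM or more, 6 were at least 1.5-fold lower in knockout without LPS and 7 with LPS, against 1.87% and 2.51% of all genes. Their median log2 ratios were −0.78 and −0.63, where all genes had 0.05 and 0.06. Acta2, the smooth muscle actin gene, had log2 ratios of −1.11 and −1.04, and Tagln stood at 110.2 FPKM in unstimulated control and 54.6 FPKM in unstimulated knockout. The endothelial genes Pecam1 and Cdh5 did not exceed 0.163 FPKM, and no marker of the list was at 0 in all libraries. The part of these markers in the Csf1 difference was not tested. With LPS against without, Pdgfra stood at 7.16 against 1.57 FPKM in control and at 4.34 against 1.36 FPKM in knockout, and Dcn at 7.70 against 2.71 FPKM and at 8.28 against 2.82 FPKM. Their part in the LPS difference of Csf1 was not tested either.

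Csf2 was listed at 0 FPKM in unstimulated control, and stood at 4.69 in stimulated control, 0.187 in unstimulated knockout and 22.2 in stimulated knockout. The values were whole multiples of 1 step and corresponded to 0, 41, 2 and 148 fragments. From the annotated transcript length the last 3 would be 27.7, 1.35 and 100.04 fragments, so the counts, and the bound and intervals below, are uncertain by that much. The knockout library with LPS was thus far above the other 3. In control the LPS level was at least 20.1-fold higher than the level that 3 fragments would give (0.233 FPKM). In knockout it was 118.7-fold that without LPS, with a counting interval of 32.3 to 989 because the lower library held 2 fragments. Knockout to control with LPS was 4.74-fold, with a counting interval of 3.34 to 6.88.

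Csf2 was the only one of the 8 genes at 2-fold or more between genotypes with LPS, where 0.493% of all 7509 genes were higher and 0.4% lower. Its log2 ratio of 2.03 was the 11th highest of those genes. Csf2 entered this comparison only through the knockout library with LPS, the one where it was high. Without LPS none of the 6 genes counted reached 2-fold, where 0.49% of all genes were higher and 0.412% lower. The LPS ratio of Csf2 was 2.51 in control and 4.29 in knockout, a difference of 1.78 on the log2 scale. It was the only one of the 8 whose LPS ratios differed by 2-fold or more, where 0.375% of all 8272 genes had the larger ratio in knockout and 0.447% in control. With a pseudocount of 0.1 FPKM no gene of the 8 reached 2-fold in that difference. With that pseudocount the LPS ratios of Csf2 were 5.58 and 6.28, both set by unstimulated libraries with 0 and 2 fragments. The 4 comparisons share libraries, so they are not independent of each other.

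T cells, natural killer cells and mast cells are other known sources of GM-CSF. The 9 T and natural killer cell markers summed to between 1.15 and 1.76 FPKM over the 4 libraries, with Cd3e, Ncr1, Gzma and Klrb1c at 0 in all of them, and Cd4 held most of the sum. The 8 mast cell and basophil markers summed to between 0.05 and 0.394 FPKM, and Cpa3, Mcpt4, Ms4a2, Fcer1a and Tpsb2 were at 0 throughout. Stromal cells are a known source too, and most of their markers, described beside Csf1, were not near 0. Col1a1 stood at 84.0 FPKM in unstimulated control, 92.6 in stimulated control, 47.3 in unstimulated knockout and 56.2 in stimulated knockout. Pdgfra and Dcn were higher with LPS in each genotype. The part of stromal cells in the Csf2 values was not tested.

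Csf3 was listed at 0 FPKM in unstimulated control, and stood at 29.4 in stimulated control, 0.0669 in unstimulated knockout and 55.2 in stimulated knockout. These corresponded to 0, 360, 1 and 514 fragments. Only the LPS libraries held more than 1 fragment, and of these the knockout library was the higher. In control the LPS level was at least 176.9-fold higher than the level of 3 fragments (0.166 FPKM). In knockout the ratio was 824.5-fold with a counting interval of 147 to 32630, which a single fragment sets. Knockout to control with LPS was 1.88-fold (1.64 to 2.15), a log2 ratio of 0.89 that was short of 2-fold and lay above 99.3% of all genes counted. The LPS ratios, 4.93 in control and 5.72 in knockout, differed by 0.79. Stromal cells are a known source of G-CSF as well, and their part in the Csf3 values was not tested.

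The 3 ligand genes thus differed in their genotype order with LPS: Csf1 was lower in knockout, and Csf2 and Csf3 were higher. With LPS, Csf1 had 1.81 times the FPKM of Csf3 in control and 0.712 times in knockout, and Csf3 had 6.27 times that of Csf2 in control and 2.48 times in knockout. Csf2 and Csf3 both lie on chromosome 11, Csf2 at 54247271 to 54249667 and Csf3 at 98701263 to 98703629. Csf1 lies on chromosome 3 at 107741048 to 107760469 (GRCm38).

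**Figure D2:**
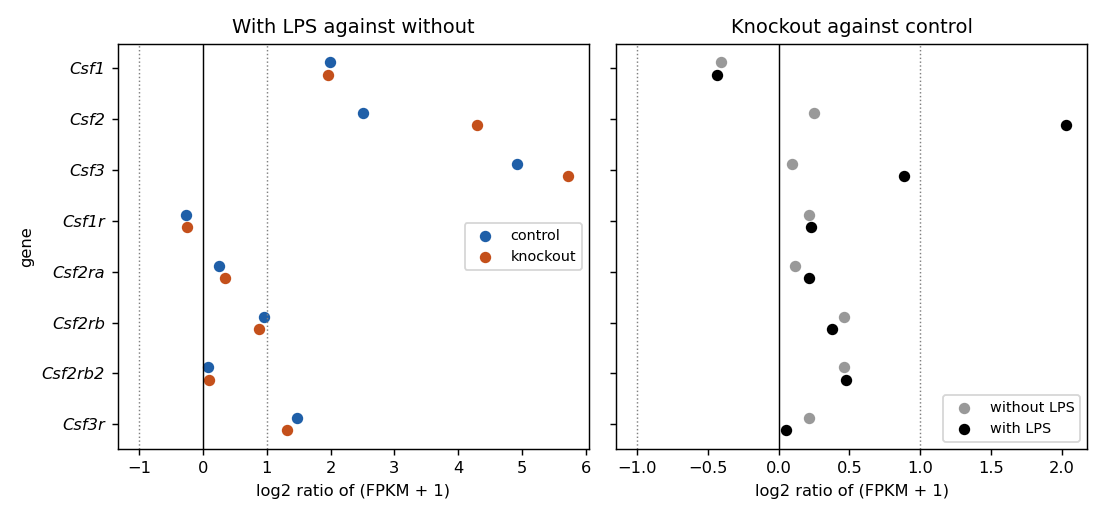
Log2 ratios of (FPKM + 1) for the 8 genes, LPS against no LPS on the left and knockout against control on the right, with dotted lines at 2-fold and different horizontal scales. The ligand genes hold the 3 highest LPS ratios of the set in both genotypes, and Csf2 with LPS (2.03) is the one point past 2-fold on the right.

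Csf1r stood at 319 FPKM in unstimulated control, 265 in stimulated control, 371 in unstimulated knockout and 311 in stimulated knockout. Levels were lower with LPS in each genotype and higher in knockout in each LPS state. The LPS log2 ratios were −0.27 and −0.25, and those of knockout to control were 0.21 without LPS and 0.23 with LPS. All genes had genotype medians of 0.07 and 0.09, and both ratios of Csf1r lay inside the middle 95% of all genes. Per length, Csf1r had 25.1 times the level of its ligand Csf1 in control without LPS and 4.97 times with LPS, and in knockout 39.6 and 7.93 times. Il34, which encodes the other ligand of this receptor, did not exceed 1.07 FPKM.

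The transcription factors known to act on the Csf1r locus had LPS ratios of both signs. Of 12 such genes, LPS-stimulated control cells had 5 at least 2-fold higher and 5 lower, and stimulated knockout cells 5 higher and 4 lower. Among all 10935 genes at 1 FPKM or more, 10% were higher and 6.68% lower in control, and 11.2% and 8.12% in knockout. Sfpi1, which encodes PU.1, stood at 259 and 606 FPKM in control without and with LPS and at 322 and 661 FPKM in knockout. In control, Egr1 (3.33), Ets2 (2.21) and Cebpb (2.19) also had high LPS log2 ratios, and Fos (−2.08) was among the lowest in knockout. None of the 12 reached 2-fold between genotypes, and the highest ratio with LPS was 0.61 for Ets2. Of all genes, 0.412% were higher and 0.384% lower by as much without LPS, and 0.503% and 0.466% with LPS.

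Csf2ra, the GM-CSF alpha chain gene, stood at 127 FPKM in unstimulated control, 151 in stimulated control, 138 in unstimulated knockout and 175 in stimulated knockout. The 4 libraries lay close together, with the knockout library with LPS highest. The LPS log2 ratios were 0.25 and 0.34, and with upper-quartile scaling the control value was −0.00. Knockout to control was 0.12 without LPS and 0.21 with LPS. Csf2ra lies on chromosome 19 at 61223957 to 61228429 (GRCm38).

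Csf2rb, the shared beta chain gene, stood at 35.1 FPKM in unstimulated control, 69.4 in stimulated control, 48.7 in unstimulated knockout and 90.6 in stimulated knockout. The LPS library was the higher in each genotype, and the knockout library in each LPS state. LPS folds were 1.97 in control (counting interval 1.88 to 2.08) and 1.86 in knockout (1.77 to 1.95). Knockout to control was 1.39-fold without LPS (1.31 to 1.46) and 1.31-fold with LPS (1.24 to 1.37), and the log2 ratios were 0.46 and 0.38.

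Csf2rb2, the beta chain gene of the interleukin 3 receptor, stood at 42.6 FPKM in unstimulated control, 44.9 in stimulated control, 59.1 in unstimulated knockout and 62.99 in stimulated knockout. Here the libraries separated by genotype: both knockout libraries were above both control libraries. The LPS log2 ratios were 0.08 and 0.09, and with upper-quartile scaling they were −0.17 and −0.18. The counting interval of the LPS ratio included 1 in control (0.998 to 1.12) and not in knockout (1.01 to 1.12). Knockout to control was 1.39-fold without LPS (1.32 to 1.46) and 1.40-fold with LPS (1.32 to 1.49).

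The beta chain genes thus had near-equal genotype ratios without LPS (0.46 and 0.46) and unequal LPS ratios. Csf2rb had 0.826 times the FPKM of Csf2rb2 in control without LPS, 1.55 times with LPS, and 0.824 and 1.44 times in knockout. These ratios within a library do not depend on scaling. The share of Csf2rb in their summed FPKM was 45.2% in control and 45.2% in knockout without LPS, and 60.7% and 59.0% with LPS. The sum itself was 77.7, 114, 107.8 and 154 FPKM in unstimulated control, stimulated control, unstimulated knockout and stimulated knockout. Csf2ra had 1.64 and 1.32 times that sum in control without and with LPS, and 1.28 and 1.14 times in knockout.

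The split between the beta chain genes is uncertain, because they are close copies. Their coding sequences were identical at 2505 of 2631 aligned bases (95.2%). The coding transcripts compared were chosen by their mark as principal in GENCODE and then by length. Of their 50-base words, 18.4% of those of Csf2rb occurred in Csf2rb2, and of the 100-base words 6.96%. How fragments that fit both genes were divided was not stated in any label. The genes lie beside each other on chromosome 15 on opposite strands, with starts 20031 bases apart, Csf2rb2 at 78282507 to 78305721 and Csf2rb at 78325752 to 78353847 (GRCm38).

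**Figure D3:**
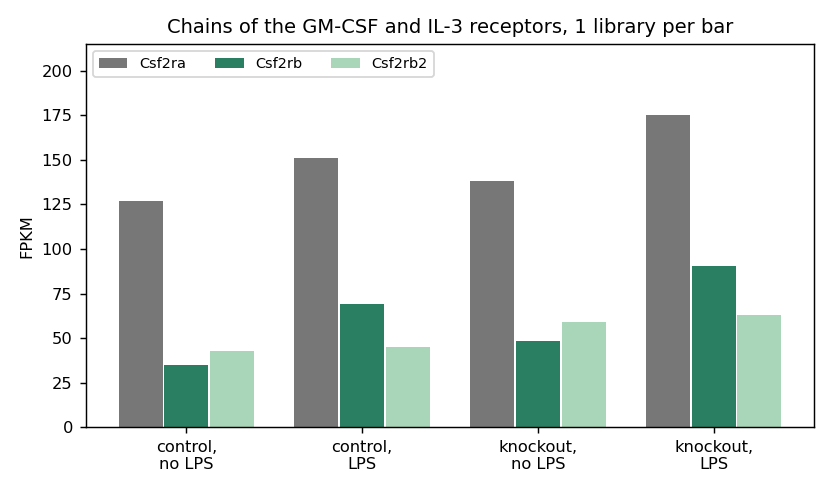
FPKM of the GM-CSF alpha chain gene Csf2ra and the beta chain genes Csf2rb and Csf2rb2, with 1 bar per gene and library. Csf2rb is below Csf2rb2 in both libraries without LPS and above it in both with LPS, and Csf2ra is highest in all 4 (127 to 175 FPKM).

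Of the other partners of the beta chains, only Il3ra was above 0. Il3ra, the interleukin 3 alpha chain gene, stood at 23.5, 24.5, 29.4 and 25.2 FPKM in unstimulated control, stimulated control, unstimulated knockout and stimulated knockout. That was 0.144 to 0.213 times the level of Csf2ra. Il5ra and the ligand genes Il3 and Il5 were listed at 0 in all 4 libraries.

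Csf3r stood at 10.5 FPKM in unstimulated control, 30.8 in stimulated control, 12.3 in unstimulated knockout and 32.1 in stimulated knockout. Both LPS libraries were above both libraries without LPS, and the genotypes lay close together. LPS folds were 2.95 in control (counting interval 2.65 to 3.27) and 2.61 in knockout (2.33 to 2.91). Knockout to control was 0.21 on the log2 scale without LPS and 0.06 with LPS, where upper-quartile scaling gave −0.04 and the counting interval of the ratio, with an upper bound of 1.14, included 1. The level of Csf1r was 30.5 times that of Csf3r in control without LPS and 8.59 times with LPS, and 30.1 and 9.70 times in knockout. Csf3r lies on chromosome 4 at 126024550 to 126044440 (GRCm38).

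Neutrophils are the cells best known for Csf3r, and their markers were looked at beside it. The 13 markers listed summed to 72.2 FPKM in unstimulated control, 560 in stimulated control, 73.5 in unstimulated knockout and 420 in stimulated knockout. Lcn2 (295 and 265 FPKM with LPS) and S100a8 (214 and 114 FPKM with LPS) held most of the LPS sums, and both are also known LPS-induced genes of macrophages. S100a9 (9.94 to 19.9 FPKM), Mmp8 (22.6 to 35.7 FPKM) and Ngp (0.892 to 2.99 FPKM) were above 0 in all 4 libraries. The granule protein genes Mpo and Ctsg were at 0 in all libraries, and Elane and Prtn3 did not exceed 0.168 FPKM. Camp, a granule peptide gene, was highest in stimulated control, at 4.82 FPKM. Which cells held these messages was not measured, and the part of any of these markers in the Csf3r difference was not tested.

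**Figure D4:**
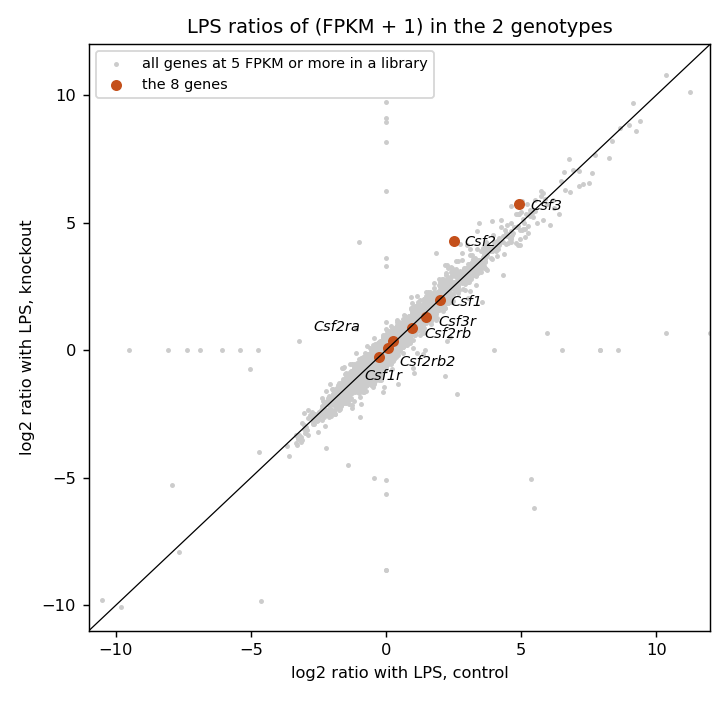
LPS log2 ratio of (FPKM + 1) in knockout against that in control, for all genes at 5 FPKM or more in at least 1 library (grey) and the 8 genes (orange), with the line of equal ratios. Csf2 lies farthest above the line among the 8 (4.29 against 2.51), and the 5 receptor genes and Csf1 lie within 0.16 of it.

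Among the kinases, STAT proteins and adaptors that these receptors use, the genes that differed by 2-fold with LPS were all higher, and none differed as much by genotype. Of 17 such genes, stimulated control cells had 6 at least 2-fold higher and knockout cells 7, and none was lower. Of all genes, 10% and 11.2% were higher and 6.68% and 8.12% lower in control and knockout. None of the 17 reached 2-fold between genotypes, where 0.412% and 0.503% of all genes were higher and 0.384% and 0.466% lower. The list's median LPS log2 ratio was 0.71 in control and 0.81 in knockout, where all genes had 0.01 in each. Jak2, the kinase of the GM-CSF receptor, stood at 11.5 FPKM in unstimulated control, 157.6 in stimulated control, 12.4 in unstimulated knockout and 163 in stimulated knockout. Stat5a stood at 4.71, 29.9, 3.72 and 27.3 FPKM in the same order. Its close relative Stat5b, at 12.7, 14.1, 11.6 and 14.5 FPKM, lay within a narrow range. Stat3, which carries G-CSF signals, had LPS log2 ratios of 1.86 and 1.98.

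Genes for inhibitors of these receptors moved in both directions. Of 14 listed, stimulation went with 3 at least 2-fold higher and 2 lower in each genotype, where 10% and 11.2% of all genes were higher and 6.68% and 8.12% lower in control and knockout. None reached 2-fold between genotypes, as 0.412% of all genes did upward and 0.384% downward without LPS, and 0.503% and 0.466% with LPS. Socs3, the inhibitor of G-CSF receptor signalling, stood at 2.59 FPKM in unstimulated control, 1099.8 in stimulated control, 3.93 in unstimulated knockout and 911 in stimulated knockout. Socs1 stood at 2.02, 89.2, 2.06 and 87.8 FPKM in the same order. Inpp5d, which encodes the phosphatase SHIP1, was lower with LPS, at 53.7 and 9.67 FPKM in control and 53.6 and 8.71 FPKM in knockout, and Dok2 was the other lower gene. Adam17, the protease known to shed the M-CSF receptor from the cell surface, stood at 47.7, 80.2, 62.6 and 102 FPKM in unstimulated control, stimulated control, unstimulated knockout and stimulated knockout.

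Cish, a STAT5 target that limits beta chain signalling, stood at 0.36 FPKM in unstimulated control, 10.6 in stimulated control, 0.277 in unstimulated knockout and 18.9 in stimulated knockout. The knockout library with LPS was the highest, with a log2 ratio to control of 0.78. Cish belongs to a list of 12 genes known to respond to GM-CSF in macrophages, of which 11 reached 1 FPKM. The list was chosen with earlier results of these data known, so its counts and medians are a description and no test. With LPS, knockout cells had 2 of the 11 at 2-fold or more above control and none below it by as much, and 0.503% of all genes were as far above and 0.466% as far below. The median log2 ratio of the 11 was 0.31, where all genes had 0.06. Ccl22, a T cell chemokine gene, stood at 0.2, 11.9, 0.0964 and 33.9 FPKM in the order given for Cish. Osm, which encodes oncostatin M, stood at 2.18, 4.995, 2.41 and 13.4 FPKM. Their log2 ratios with LPS were 1.43 and 1.27, and in each the knockout library with LPS was above the other 3. Ccl17, at 6.78 and 8.10 FPKM with LPS and listed at 0 without it, and Pim1, at 372 and 461 FPKM with LPS, differed less. Id2 had a knockout to control log2 ratio with LPS of 0.10, and only Myc (−0.15) and Pparg (−0.13) of the 11 were below 0. With LPS against without, 4 of the 11 were at least 2-fold higher and 1 lower in control, and 5 and 2 in knockout. Of all genes, 10% and 11.2% were higher and 6.68% and 8.12% lower. With upper-quartile scaling 2 of the 11 were lower in control. Without LPS none of the 11 reached 2-fold between genotypes, where 0.412% of all genes were higher and 0.384% lower. GM-CSF protein was not measured, and the part of GM-CSF in these values was not tested.

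**Figure D5:**
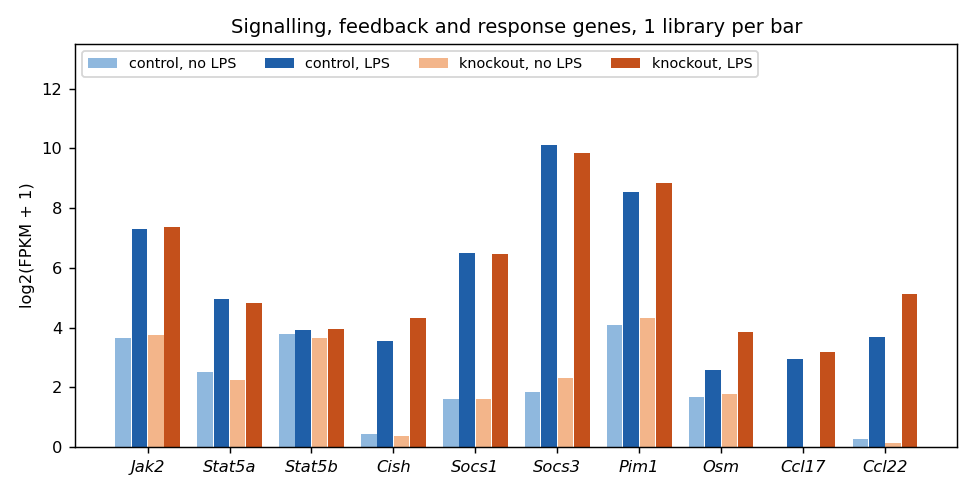
Levels of 10 signalling, inhibitor and GM-CSF response genes as log2(FPKM + 1), with 1 bar for each of the 4 libraries. Jak2, Stat5a, Socs1 and Socs3 have LPS bars of like height in both genotypes, while Cish, Osm and Ccl22 are highest in knockout with LPS.

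Some genes of proteins that bind AU-rich elements or cut cytokine messages differed by 2-fold with LPS. Of 10 such genes, stimulated control cells had 3 at least 2-fold higher and 1 lower, and knockout cells 4 higher and 1 lower. Of all genes, 10% and 11.2% were higher and 6.68% and 8.12% lower. With upper-quartile scaling 2 of the 10 were higher in each genotype. Zfp36, which encodes tristetraprolin, the decay factor known to act on Csf2 messages, stood at 77.6 FPKM in unstimulated control, 1153 in stimulated control, 82.4 in unstimulated knockout and 1015 in stimulated knockout. Zc3h12a, which encodes the nuclease regnase, stood at 13.8, 175.7, 15.3 and 201 FPKM in the same order. Zfp36l2 was the lower gene, with LPS log2 ratios of −2.14 and −1.86. None of the 10 reached 2-fold between genotypes, and with LPS their log2 ratios lay between −0.37 and 0.32. Few of all genes reached it: 0.412% were higher and 0.384% lower without LPS, and 0.503% and 0.466% with LPS.

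The genes most like each of the 8 were found by Euclidean distance of centred log2(FPKM + 1) over the 4 libraries, among 7769 named genes at 5 FPKM or more. With 4 libraries many genes lie close to any pattern, and nothing is read from these names. The nearest to Csf2 were Shisa3, Hdc, the histamine synthesis gene, and Mycl1. Shisa3 stood at 0 FPKM in unstimulated control, 5.61 in stimulated control, 0.0218 in unstimulated knockout and 17.4 in stimulated knockout. The nearest to Csf3 were Il4i1, Rsad2 and Tnfsf15, with knockout to control log2 ratios with LPS of 1.02, 0.85 and 0.70. Csf1 was nearest to Hvcn1, Cebpb and Snn, Csf1r to Pip5k1c, Frmd4a and Ccdc22, and Csf2ra to Cox7a2, Far1 and Metap1. Csf2rb was nearest to Tagln2, Ldha and Cd48, and Csf2rb2 to Syce2, the folate receptor gene Folr2 and Itgam. Csf3r was nearest to Eif6, Lyn and Ccnl1.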

How the data were processed

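Polyadenylated RNA of 4 libraries was sequenced after RNeasy purification and TruSeq stranded mRNA preparation, per the labels' protocols. The authors deposited FPKM values for 23284 genes, 1 library a file. Per the submitters' processing notes, Cuffnorm 2.2.1, TopHat2 2.0.13, SAMtools 0.1.19 and Bowtie2 2.2.3 were used with the mm10 build, with no roles listed. No label names the annotation. From these values pandas 2.3.3 was used to form log2 ratios of (FPKM + 1) for pairs of libraries, without further scaling. No test was run, since no group has a replicate. Fragments were estimated from the spacing of low values, where 2641 of 3175 low genes (83.2%) were whole multiples within a tolerance of 0.02, and for the other genes from GENCODE vM21 transcript lengths less 250 bases. Ratios have exact Clopper-Pearson 95% intervals from scipy 1.17.1. The steps between low values and the 2-fold calls were tried on simulated data with counting noise only, without variation between cultures. The fragment numbers and intervals of the 8 genes were not checked that way. The 8 genes and 13 further lists were chosen with earlier results of these data known. Named were the 8 genes, Spic, up to 4 list genes with the largest ratios at 1 FPKM or more, genes paired with one of the 8 by role, and 3 nearest genes each, and a few genes so chosen are left out here. Spi1 was matched as Sfpi1 through RefSeq synonyms. Lnk, Adgre1 and Ly6g were not analysed here under those symbols. Alternatives changed the pseudocount, the minimum, the scaling, the threshold and the separation of the beta chains.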

Additional observations from a re-analysis of the deposited data

How the results depend on the processing

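The count of genes at 2-fold between genotypes with LPS was 2 in place of 1 at a 1.5-fold threshold. The count whose LPS ratio differed between genotypes was 0 in place of 1 with a pseudocount of 0.1 FPKM, and 2 at a 1.5-fold threshold. The other counts over the 8 genes stayed within 1.5 times under the alternatives run, whereas several counts over other lists did not with upper-quartile scaling. Among these, decay factors higher with LPS in knockout numbered 2 in place of 4. Macrophage identity genes lower with LPS in knockout numbered 4 in place of 1, and GM-CSF response genes lower with LPS in control 2 in place of 1. With a pseudocount of 5 FPKM, 10 of the 32 single ratios moved, all toward 0, and that of Csf2 with LPS in control was 0.95. Upper-quartile scaling moved the medians of all genes from 0.11 to −0.15 (LPS, control), 0.12 to −0.15 (LPS, knockout), 0.07 to −0.01 (genotype, no LPS) and 0.09 to −0.01 (genotype, LPS). It moved the share of higher calls from 65.5% to 47.5%, 63.9% to 44.9%, 54.3% to 44.8% and 55.2% to 43.8%, and changed the sign of 4 ratios named above. No paired analysis was possible because each group is 1 library, and for the same reason no replicate could be left out. Csf2 and Csf3 had 0 to 2 fragments without LPS, so depth limits their LPS folds.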

Other observations

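Among the relatives of these receptors, the growth factor genes Flt3l and Kitl were lower with LPS. Flt3l stood at 4.43 FPKM in unstimulated control, 1.63 in stimulated control, 3.92 in unstimulated knockout and 2.43 in stimulated knockout. Kitl, which encodes stem cell factor, stood at 5.37, 2.21, 6.57 and 2.06 FPKM in the same order. Their receptors were near 0, with Flt3 at no more than 0.0224 FPKM and Kit at no more than 0.075 FPKM. Tyrobp, the adaptor gene DAP12 that M-CSF signalling uses, stood at 1937, 1661, 2399 and 1949 FPKM, and Sdc1 at 21.8, 41.3, 31.4 and 51.7 FPKM.

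Of 13 genes of macrophage identity, stimulation went with 2 at least 2-fold higher in each genotype, and with 2 lower in control and 1 in knockout. Of all genes, 10% and 11.2% were higher and 6.68% and 8.12% lower. With upper-quartile scaling 1 was higher in each genotype, and 2 were lower in control and 4 in knockout. Between genotypes without LPS, Cd14 was the one gene at 2-fold, with 114 FPKM in control and 234 FPKM in knockout (log2 ratio 1.03). Of all genes, 0.412% were higher and 0.384% lower in that comparison. With upper-quartile scaling no gene of the list reached 2-fold there. Lyz2, the lysozyme gene, stood at 6340.4 FPKM in control and 4014 FPKM in knockout without LPS and at 5620.4 and 3419 FPKM with LPS. The 10 dendritic cell markers summed to 7.33 to 15.7 FPKM, with Cd209a and Siglech at 0, and the 6 B cell markers to 1.34 to 4.61 FPKM.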
